A study of Mus musculus with 4 samples.

Results

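The FGF, RAS and ERK pathway was followed in mouse embryonic stem cells (ESCs) by the transcript levels of 44 genes, picked by symbol from the 49997 genes of a table of raw read counts. They comprised 4 FGF ligands, 4 FGF receptors, 2 adaptor and phosphatase genes, 5 RAS exchange factors, 4 genes for RAS proteins and a RAS inhibitor, 4 kinases, 9 feedback inhibitors, 3 ETS factors, 6 immediate-early genes, and 3 genes of the MYC and delayed-target class. The genes were chosen from knowledge of the pathway while their fold changes and adjusted p-values between control and Ythdf2-knockdown cells were already known, so their calls in this comparison are a description and no test of the group is given. Of the 44 genes, 43 had enough reads to be tested. Fosl1, which encodes the AP-1 subunit FRA1, was not tested, with 4 and 1 reads in the control libraries and 7 and 8 in the knockdown libraries. Ccdc85b overlaps 67.7% of its exon bases on the opposite strand, and counting ignored strand.

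RNA was sequenced from E14 cells, a pluripotent line from the early mouse embryo, that carried a lentiviral short hairpin RNA with a scrambled sequence (shScramble) or one against Ythdf2 (shYthdf2). Ythdf2 encodes a cytoplasmic protein that binds mRNAs carrying N6-methyladenosine (m6A) and promotes their decay. Each group had 2 libraries. All cells were stable lines under puromycin selection, were grown on gelatin in Knock-out DMEM with 15% KnockOut Serum Replacement and 1000 U/ml of leukemia inhibitory factor, and differed by label only in the hairpin. Per its methods the study kept ESCs with a tdTomato reporter under the MERVL promoter, which both groups would share, and the labels do not mention it. The medium as described names neither a MEK inhibitor nor an added FGF. Per the study's methods the libraries of a group were biological replicates, but the labels do not say whether they came from separate infections or which of the study's hairpins against Ythdf2 they carried, so the p-values measure the spread between these libraries, part of which may be technical.

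Fibroblast growth factors bind receptor tyrosine kinases, which recruit GRB2 and the phosphatase SHP2 and bring exchange factors to RAS at the membrane. RAS loaded with GTP starts the cascade from RAF to MEK to ERK. ERK then switches on immediate-early genes and, through ETS factors, a set of Sprouty, SPRED and dual-specificity phosphatase genes that damp the pathway. In ESCs this pathway, driven mainly by FGF4, readies cells to leave the naive pluripotent state, and its output genes are commonly read as a measure of ERK activity.

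Libraries held 31113006 to 36422510 counted reads, of which the 44 genes took 0.267% to 0.285%. Levels are given in CPM, the reads scaled to a common library total by TMM, and levels of different genes are set side by side only in RPKM, the CPM per kilobase of exon. The exon length joins all annotated exons and can far exceed a transcript, so the order of genes by RPKM depends on it. Differences are given as log2FC, the log2 fold change of shYthdf2 against shScramble, with its standard error (SE). The targeted gene was lower in both knockdown libraries, with 3365 and 2760 Ythdf2 reads in shScramble and 1086 and 1082 in shYthdf2, a log2FC of -1.55 ± 0.11 (SE, with an edgeR adjusted p of 0.00069). Of 10 pluripotency markers, all had reads in each library, with a summed level of 7410 and 7282 CPM in shScramble and 6984 and 6510 CPM in shYthdf2, and 1 of them, Tdgf1, was called lower. In bulk RNA, fewer cells of a type and less RNA per cell cannot be told apart.

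Sequences of 4 of the 5 genes that passed the test are shown first, without Egr1, for the 2 kinds of site that bear on this design. The m6A mark lies within a short sequence context of which GGACT is a common form, so this motif was looked up in the longest protein-coding transcript of each gene (GENCODE M21, GRCm38, which has the coordinates of mm10). No methylation was measured in the counts used here, and a match says only that the letters are there. The sites below are given with 8 bases on either side and the motif in capitals, for genes that were higher (Rasgrp2, Hras) or lower (Fgf17, Braf) in the knockdown.
Rasgrp2, 3′ UTR in exon 17 of 17, chr19:6415007-6415011, plus strand: actatcaaGGACTcattcctg
Hras, 3′ UTR in exon 6 of 6, chr7:141190796-141190800, minus strand: gggacctcGGACTatacagcc
Hras, 3′ UTR in exon 6 of 6, chr7:141190521-141190525, minus strand: agattctaGGACTatggaaat
Fgf17, 5′ UTR in exon 1 of 5, chr14:70641836-70641840, minus strand: cttctctgGGACTctacctca
Fgf17, 3′ UTR in exon 5 of 5, chr14:70636331-70636335, minus strand: gaccgtagGGACTtacggttt
Braf, coding sequence in exon 12 of 22, chr6:39646795-39646799, minus strand: ccaatcccGGACTcccagccc
Rasgrp2 held 1 motif in 2296 bases and Fgf17 held 2 in 1689 bases. Braf held 5 in 9728 bases, of which 4 lay in its 3′ UTR. Hras held 9 in 2828 bases, most of them beyond the end of the exons over which its reads were counted. Over all 44 members the median was 1.13 motifs per kilobase, with values from 0 in Eras, Mapk3 and Fosl1 to 3.35 in Spry2. The median over the 14063 of 18341 tested genes that matched a protein-coding transcript was 1.05 per kilobase, with a middle range from 0.643 to 1.52. The called members lay on both sides of that median, with 0.436 per kilobase in Rasgrp2, 1.12 in Egr1 and 3.18 in Hras among the higher genes, and 0.514 in Braf and 1.18 in Fgf17 among the lower ones.

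Promoters are the second kind of site, because ERK acts on transcription through factors with known binding motifs. The windows run from 250 bases before to 50 bases after a gene's start and come from RefSeq (GRCm38.p6), which matched 30 of the 44 genes. Fgf8, Fgf15, Fgf17, Fgfr1, Rasgrp4, Mapk3, Spry4, Dusp4, Etv4, Egr1, Fosl1, Ier2, Myc and Phlda1 had no entry. Both strands were searched for the cyclic AMP response element TGACGTCA, the AP-1 site TGANTCA, the EGR site GCGNGGGCG, the ETS site CCGGAAGT and the CArG box bound by serum response factor. Capitals mark every match in the windows below, none of which overlaps a match to another motif, written 5′ to 3′ on the strand of the gene. Shown are the called members with an entry, Rasgrp2 at both of its listed starts, and Dusp5 as the gene with CArG boxes.
Braf, chr6:39725414-39725713, minus strand: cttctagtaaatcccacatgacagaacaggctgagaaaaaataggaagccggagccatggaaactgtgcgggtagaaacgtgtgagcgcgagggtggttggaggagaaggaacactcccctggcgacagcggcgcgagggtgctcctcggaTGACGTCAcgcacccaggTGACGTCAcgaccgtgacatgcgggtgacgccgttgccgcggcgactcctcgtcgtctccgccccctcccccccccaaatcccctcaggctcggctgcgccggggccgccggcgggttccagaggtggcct
Hras, chr7:141193955-141194254, minus strand: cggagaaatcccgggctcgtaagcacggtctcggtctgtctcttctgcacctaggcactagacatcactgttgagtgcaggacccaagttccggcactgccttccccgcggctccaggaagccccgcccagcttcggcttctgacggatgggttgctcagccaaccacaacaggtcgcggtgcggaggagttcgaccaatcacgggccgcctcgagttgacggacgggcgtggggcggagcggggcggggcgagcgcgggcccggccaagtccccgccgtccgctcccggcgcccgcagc
Rasgrp2, upstream start, chr19:6399625-6399924, plus strand: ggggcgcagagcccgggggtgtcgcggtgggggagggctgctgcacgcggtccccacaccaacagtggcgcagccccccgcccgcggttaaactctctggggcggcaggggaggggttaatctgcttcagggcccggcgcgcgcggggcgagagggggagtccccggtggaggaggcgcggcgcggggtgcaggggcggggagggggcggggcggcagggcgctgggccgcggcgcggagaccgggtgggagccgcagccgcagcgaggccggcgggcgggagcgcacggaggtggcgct
Rasgrp2, downstream start, chr19:6401455-6401754, plus strand: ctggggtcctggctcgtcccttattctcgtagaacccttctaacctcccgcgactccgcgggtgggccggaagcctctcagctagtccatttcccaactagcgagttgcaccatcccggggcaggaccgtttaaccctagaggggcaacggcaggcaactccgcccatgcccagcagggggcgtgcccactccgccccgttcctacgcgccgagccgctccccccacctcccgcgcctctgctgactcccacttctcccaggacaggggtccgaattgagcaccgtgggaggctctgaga
Dusp5, chr19:53528895-53529194, plus strand: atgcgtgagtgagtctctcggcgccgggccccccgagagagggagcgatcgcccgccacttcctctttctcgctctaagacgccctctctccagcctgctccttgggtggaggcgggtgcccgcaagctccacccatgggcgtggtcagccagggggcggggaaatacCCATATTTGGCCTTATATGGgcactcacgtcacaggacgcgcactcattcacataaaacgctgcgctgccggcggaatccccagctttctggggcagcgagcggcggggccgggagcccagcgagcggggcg
Braf held a pair of cyclic AMP response elements that begin 99 and 81 bases before the start, and Ptpn11 held the same motif 67 bases before its start. This motif occurred in 1.79% of the 32851 promoter windows in the table. Dusp5 held CArG boxes that begin 82 and 72 bases before the start, back to back, a motif found in 1.63% of windows. EGR sites lay in the windows of Fgf3, Fgfr3 and Ptpn11, against 5.55% of all windows, and an ETS site lay in that of Nf1, against 3.89%. The AP-1 site was in 0 of the 36 member windows and in 7.81% of all windows. The windows of Hras and Rasgrp2 held none of these letters, which says nothing of the factors themselves.

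Across the pathway, 3 genes were higher and 2 lower in the knockdown, by an edgeR adjusted p under 0.05 in the fit over all genes. The higher genes were Rasgrp2, Egr1 and Hras, and the lower genes were Fgf17 and Braf. By this rule 3.91% of the 18341 tested genes were called, 2.43% higher and 1.49% lower. Without adjustment, 6 members were higher and 8 lower at a p under 0.05, where 11% of all tested genes were higher and 9.8% lower. Log2FCs ran from -1.37 to 1.75, with 18 above 0 and 25 below, and a median of -0.04 against 0.00 over all tested genes. The groups did not overlap for 19 of the 43 genes, 8 of them higher and 11 lower in shYthdf2, where 51.7% of all tested genes had groups that did not overlap. DESeq2 at the same adjusted threshold called 4 higher and 4 lower, adding Rasgrp1, Spred1 and Ier3. DESeq2 called 5.08% of the 15750 genes with an adjusted p as higher and 3.82% as lower.

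**Figure D1:**
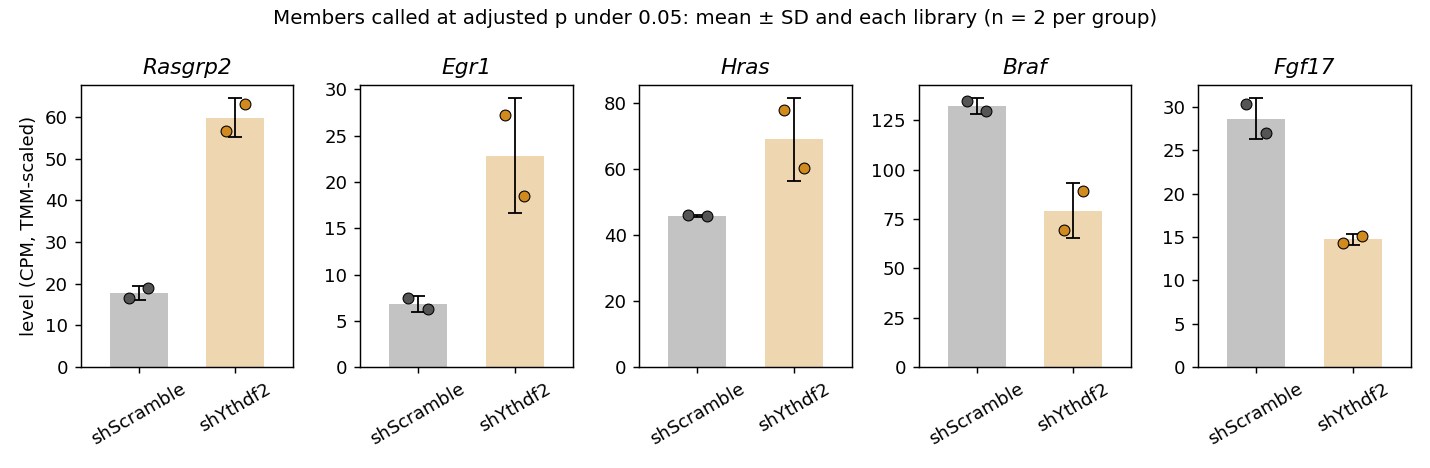
Levels (CPM after TMM scaling, linear axis from 0) of the 5 called genes, with bars for the group mean, error bars for the SD and points for each of the 2 libraries per group. The groups do not overlap for any of the 5 genes, and the knockdown libraries lie farther apart than the controls for Rasgrp2, Egr1, Hras and Braf.

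Among the ligands, Fgf17 was the gene that fell. Fgf17, a secreted factor of the FGF8 subfamily, maps to the minus strand of chromosome 14 at positions 70636203 to 70642268 (mm10). It had 1091 and 850 reads in the control libraries and 489 and 542 in the knockdown. The groups did not overlap, with shYthdf2 at 14.7 ± 0.593 CPM and shScramble at 28.6 ± 2.34 CPM (SD, n = 2). The log2FC was -0.96 ± 0.15 (SE, with an edgeR adjusted p of 0.013). An antisense gene, Gm38605, overlaps 4.32% of its exon bases, and since counting ignored strand, reads from the pair cannot be told apart there. Fgf3, Fgf8 and Fgf15, which act in the embryo's primitive streak and patterning centres, had few reads, with at most 62 in a library. Their log2FCs were -0.51, -0.22 and -0.63, none passed the test (edgeR adjusted p at least 0.55), and the libraries of the groups overlapped. Fgf8 had 0 reads in shYthdf2 replicate 1, where 3 reads would be 0.0877 CPM. Gm26793 overlaps 28.6% of the exon bases of Fgf15 on the opposite strand. The summed level of 12 mesoderm and primitive streak markers was 35.4 and 30.9 CPM in shScramble and 35.3 and 27.0 CPM in shYthdf2, with 0 called higher and 0 called lower among the 9 tested. Fgf4, the main FGF of ESCs and no member here, had a log2FC of -0.29 ± 0.10 (SE, with an edgeR adjusted p of 0.14).

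The receptors gave no call, with 0 higher and 0 lower of 4 by edgeR and by DESeq2, and 1 lower at an unadjusted p under 0.05. Fgfr1, the receptor with the highest level per kilobase (35.5 RPKM over all libraries), had 6699 and 5707 reads in the control libraries and 6208 and 5949 in the knockdown. The groups overlapped, and its log2FC was -0.08 ± 0.10 (SE, with an edgeR adjusted p of 0.73). Fgfr3 was far less abundant, at 0.469 RPKM. It had 84 and 121 reads in the control libraries and 43 and 40 in the knockdown. Both knockdown libraries were below both controls, and the log2FC of -1.37 ± 0.38 (SE) missed the threshold (edgeR adjusted p = 0.077). The size of this value depended on the control libraries. Leaving out shScramble replicate 2 gave -0.97, and leaving out shScramble replicate 1 gave -1.69, which passed the threshold (edgeR adjusted p = 0.0088). Fgfr2 and Fgfr4, at 0.978 and 1.03 RPKM, had log2FCs of 0.07 and 0.28.

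The adaptor and the phosphatase next to the receptors did not pass the test, with 0 of 2 called by edgeR or DESeq2 and 1 higher at an unadjusted p under 0.05. Grb2, which links activated receptors to SOS, had 5767 and 5099 reads in the control libraries and 5408 and 5181 in the knockdown. Its log2FC was -0.09 ± 0.10 (SE, with an edgeR adjusted p of 0.69). Ptpn11, which encodes SHP2 and is needed for full RAS activation, had a log2FC of 0.28 ± 0.11 (SE, with an edgeR adjusted p of 0.17), with both knockdown libraries above both controls. The groups of Grb2 did not overlap either, with the knockdown lower, as was so in either direction for 51.7% of all tested genes.

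Among the exchange factors, which load RAS family proteins with GTP, Rasgrp2 had the highest fold change of the 43 genes. Rasgrp2 encodes CalDAG-GEFI, a calcium- and diacylglycerol-responsive exchange factor best known for acting on RAP proteins in platelets. It maps to the plus strand of chromosome 19 at positions 6398957 to 6415216. It had 598 and 599 reads in the control libraries and 1934 and 2260 in the knockdown. Each knockdown library exceeded both controls, with shYthdf2 at 59.8 ± 4.64 CPM and shScramble at 17.8 ± 1.70 CPM (SD, n = 2). The log2FC was 1.75 ± 0.14 (SE, with an edgeR adjusted p of 0.00088). The table's row for this gene joins exons on the chromosome with those on 1 patch contig, and 3.04% of its exon bases on the chromosome overlap Gm14965 on the opposite strand. Levels per kilobase used the 8732 exon bases on the chromosome, far more than the 2296 bases of its longest protein-coding transcript, and came to 4.44 RPKM over all libraries.

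Rasgrp1, a diacylglycerol-responsive factor that acts on RAS itself, had 111 and 137 reads in the control libraries and 227 and 292 in the knockdown. Both knockdown libraries were higher, with a log2FC of 1.00 ± 0.27 (SE) that missed the threshold in edgeR (adjusted p = 0.075) and passed it in DESeq2 (adjusted p = 0.028). This gene was singled out after its values were seen. Sos1, the exchange factor recruited by GRB2, had a log2FC of -0.18 ± 0.13 (SE, with an edgeR adjusted p of 0.47). Its level was 4.62 RPKM in shScramble and 4.07 RPKM in shYthdf2, where Rasgrp2 had 2.04 and 6.85 RPKM. The exon bases of Sos1 (8919) are close to its longest protein-coding transcript (8436), and those of Rasgrp2 (8732) far exceed its own (2296). Which of these genes was higher in shScramble therefore depends on the length used. Rasgrp3 and Rasgrp4 had log2FCs of 0.26 and -0.35, neither past the test, and Rasgrp3 had at most 26 reads in a library. Fam98c overlaps 6.19% of the exon bases of Rasgrp4 on the opposite strand.

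Of the RAS genes, Hras was the only member called. It encodes one of the classical RAS GTPases and maps to the minus strand of chromosome 7 at positions 141189934 to 141194019. It had 1660 and 1440 reads in the control libraries and 2660 and 2155 in the knockdown. The groups stood apart, with shYthdf2 at 69.0 ± 12.4 CPM and shScramble at 45.9 ± 0.274 CPM (SD, n = 2). The log2FC was 0.59 ± 0.14 (SE, with an edgeR adjusted p of 0.048). The call was close to the threshold. It was lost with RLE scaling (adjusted p = 0.0504) and without shYthdf2 replicate 1, where the log2FC was 0.39 (edgeR adjusted p = 0.12). Nras, with the highest level per kilobase of this class, had 5761 and 4892 reads in the control libraries and 5092 and 5657 in the knockdown, with a log2FC of -0.04 ± 0.10 (SE, with an edgeR adjusted p of 0.88). Eras, a constitutively active RAS of ESCs, had a log2FC of -0.02, and Nf1, which encodes the RAS inhibitor neurofibromin, one of -0.04. Pcsk1n overlaps 12.5% of the exon bases of Eras on the opposite strand.

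Among the kinases Braf fell. Braf encodes the RAF kinase that phosphorylates MEK and maps to the minus strand of chromosome 6 at positions 39603231 to 39725658. It had 4865 and 4085 reads in the control libraries and 2379 and 3190 in the knockdown. Neither knockdown library reached the controls, with shYthdf2 at 79.3 ± 13.8 CPM and shScramble at 132 ± 3.84 CPM (SD, n = 2). The log2FC was -0.74 ± 0.13 (SE, with an edgeR adjusted p of 0.019). Gm34389 overlaps 2.19% of its exon bases on the opposite strand. Araf, a RAF gene from the wider pathway list, had a log2FC of 0.28 (edgeR adjusted p = 0.17). Mapk3, which encodes ERK1, had the highest level of the kinases per kilobase of exon. That rank depends on exon length, since Map2k1 has 6401 exon bases against 2436 in its longest protein-coding transcript. Mapk3 had 2604 and 2805 reads in the control libraries and 2751 and 2937 in the knockdown. Its groups overlapped, with a log2FC of 0.01 ± 0.12 (SE, with an edgeR adjusted p of 0.97). The MEK genes Map2k1 and Map2k2 had log2FCs of -0.03 and 0.27, and neither passed the test.

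**Figure D2:**
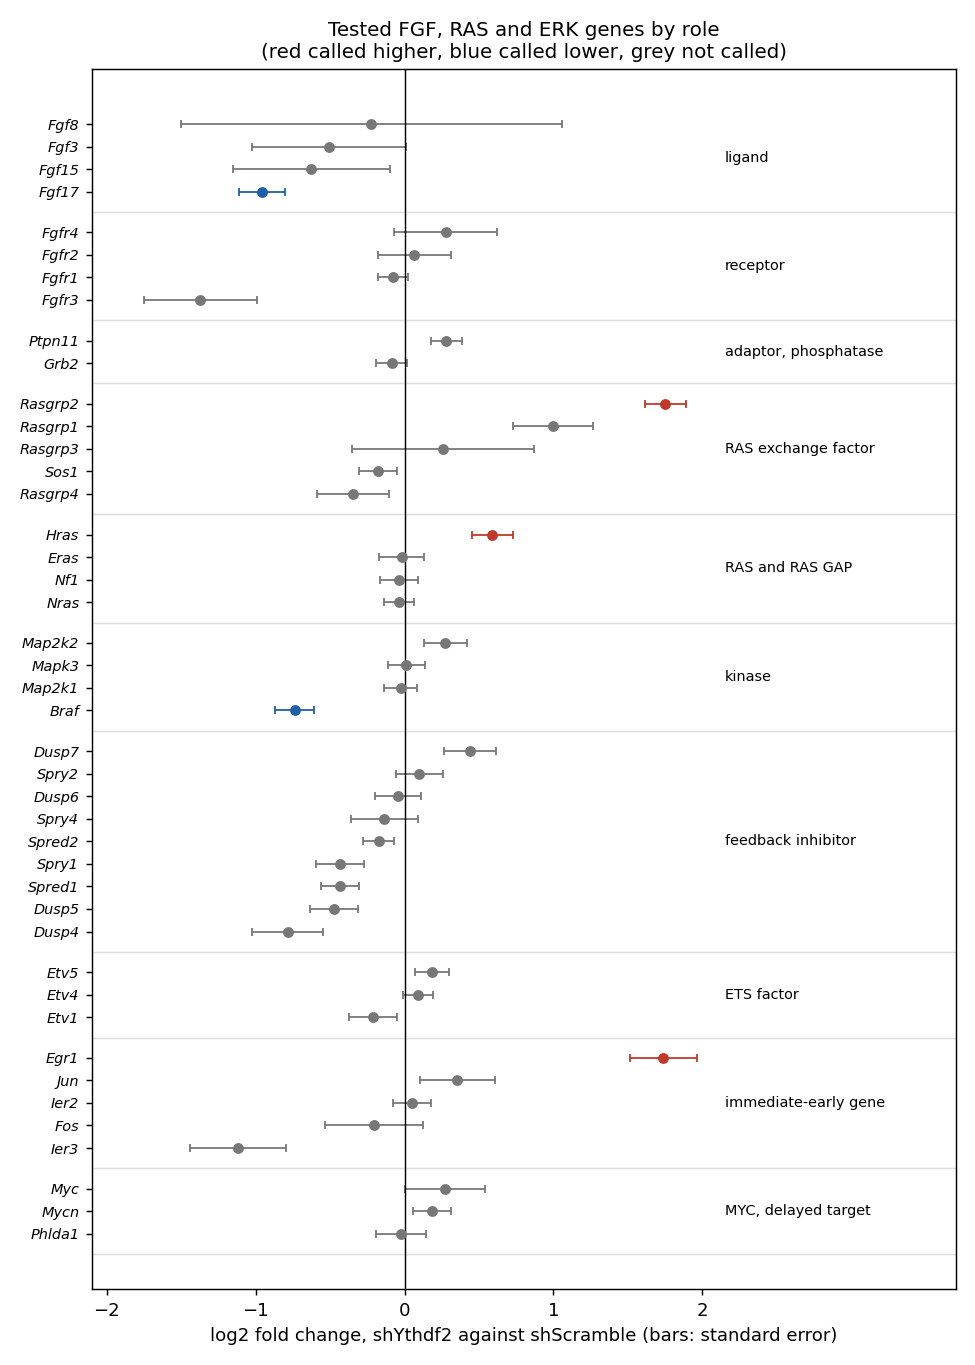
Log2FCs (shYthdf2 against shScramble, points) with standard errors (bars) for the 43 tested genes, ordered by role, with called genes in red (higher) or blue (lower) and the others in grey. The 5 calls are spread over 5 roles, and 7 of the 9 feedback inhibitors lie below 0 with none called.

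The feedback inhibitors are induced by ERK and hold it back, SPRY and SPRED proteins upstream at RAS and RAF, and DUSP phosphatases at ERK itself. None of the 9 passed the test in edgeR, with 1 higher and 4 lower at an unadjusted p under 0.05 (11% and 9.8% of all tested genes), and DESeq2 called 0 higher and 1 lower. The median log2FC was -0.17. Dusp6, the cytoplasmic ERK phosphatase, had the highest level of the class per kilobase of exon (15.0 RPKM). That rank depends on exon length, since Spred2 and Spry2 have 33833 and 3767 exon bases against 4449 and 2087 in their longest protein-coding transcripts. Dusp6 had 1764 and 1142 reads in the control libraries and 1456 and 1432 in the knockdown. The knockdown libraries lay between the controls, with a log2FC of -0.05 ± 0.15 (SE, with an edgeR adjusted p of 0.91). Gm34921 overlaps 22.4% of the exon bases of Dusp6 on the opposite strand. Dusp4, a nuclear phosphatase, had the lowest value of the class, with 260 and 218 reads in shScramble, 137 and 150 in shYthdf2 and a log2FC of -0.79 ± 0.24 (SE, with an edgeR adjusted p of 0.099). Spred1, which brings neurofibromin to RAS, had 3191 and 2251 reads in the control libraries and 2007 and 2131 in the knockdown. Its log2FC of -0.44 ± 0.13 (SE) missed the threshold in edgeR (adjusted p = 0.089) and passed it in DESeq2 (adjusted p = 0.037). Dusp4 and Spred1 were singled out after their values were seen. Spry1 and Dusp5 were lower in both knockdown libraries, with log2FCs of -0.43 and -0.47, and Dusp7 was higher in both, with 0.44, none past the test. Spry2, Spry4 and Spred2 had log2FCs of 0.10, -0.14 and -0.17.

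The ETS factors of the PEA3 group, which carry the ERK signal to transcription and are themselves targets of it, were not called by edgeR or DESeq2 (0 of 3, and 0 at an unadjusted p under 0.05). Etv5 had the highest level per kilobase of the 44 genes, at 95.8 RPKM over all libraries. It had 17183 and 12799 reads in the control libraries and 17704 and 17380 in the knockdown. After scaling, both knockdown libraries were above both controls, the group means differed by less than the gap between the controls, and the log2FC was 0.18 ± 0.11 (SE, with an edgeR adjusted p of 0.39). Etv4 and Etv1 had log2FCs of 0.09 and -0.21.

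The immediate-early genes, which ERK switches on without new protein synthesis, gave 1 call among the 5 tested. Egr1, a zinc finger factor, maps to the plus strand of chromosome 18 at positions 34861207 to 34864956. It had 268 and 197 reads in the control libraries and 931 and 661 in the knockdown. There was no overlap, with shYthdf2 at 22.8 ± 6.19 CPM and shScramble at 6.84 ± 0.840 CPM (SD, n = 2). The log2FC was 1.74 ± 0.22 (SE, with an edgeR adjusted p of 0.0052). Fos, the partner of JUN in AP-1, had 92 and 82 reads in the control libraries and 88 and 68 in the knockdown, with a log2FC of -0.21 ± 0.33 (SE, with an edgeR adjusted p of 0.78). Jun had 314 and 348 reads in the control libraries and 534 and 345 in the knockdown, so that replicate 1 of the knockdown stood above the other libraries, and its log2FC was 0.35 ± 0.25 (SE, with an edgeR adjusted p of 0.47).

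Ier2, the most abundant immediate-early gene per kilobase (79.8 RPKM), had 4689 and 3426 reads in the control libraries and 4589 and 4043 in the knockdown. Its groups overlapped, and the log2FC was 0.05 ± 0.13 (SE, with an edgeR adjusted p of 0.88). Ier3, a stress- and ERK-responsive gene linked to cell survival, had 157 and 242 reads in the control libraries and 98 and 95 in the knockdown. Both knockdown libraries were lower, with a log2FC of -1.12 ± 0.32 (SE) that missed the threshold in edgeR (adjusted p = 0.085) and passed it in DESeq2 (adjusted p = 0.036). As for Fgfr3, the value depended on the control libraries, being -0.66 without shScramble replicate 2 and -1.47 without shScramble replicate 1 (edgeR adjusted p = 0.0019). The row for Ier3 joins the chromosome with 2 alternate contigs, so its level per kilobase used the 1090 exon bases on the chromosome.

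The MYC and delayed targets were not called by edgeR or DESeq2 (0 of 3, and 0 at an unadjusted p under 0.05). Mycn, the more abundant MYC gene of these cells per kilobase, had 6877 and 4924 reads in the control libraries and 7184 and 6601 in the knockdown, with a log2FC of 0.18 ± 0.13 (SE, with an edgeR adjusted p of 0.45). Myc had 1885 and 802 reads in the control libraries and 1810 and 1470 in the knockdown. Its controls differed from each other more than the groups did, and the log2FC was 0.27 ± 0.27 (SE, with an edgeR adjusted p of 0.62). The value depended on single libraries. It was 0.89 without shScramble replicate 1 (edgeR adjusted p = 0.0007) and 0.44 without shYthdf2 replicate 2 (edgeR adjusted p = 0.047), both past the threshold. It turned to -0.16 without shScramble replicate 2 and was 0.08 without shYthdf2 replicate 1. Phlda1 had a log2FC of -0.02.

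Libraries of the same group also differed from each other. On the scale of log2(CPM + 0.5), shScramble replicate 2 was below replicate 1 by 1.03 for Myc, 0.82 for Spry4, 0.48 for Spry2 and 0.43 for Dusp6. It was above replicate 1 by 0.80 for Fgfr4, 0.77 for Fgf15, 0.75 for Ier3 and 0.62 for Fgfr3. Of the 43 tested members, 25 were lower in replicate 2 of the controls and 21 in replicate 2 of the knockdown. For the 20 tested output genes (feedback inhibitors, ETS factors, immediate-early genes, and the MYC and delayed class), replicate 2 was the lower of the controls for 15 and the lower of the knockdown libraries for 14. Over all tested genes these shares were 50.2% and 50.5%. The median difference between the controls was -0.20 for the output genes and 0.00 for all tested genes. The labels name no batch behind the replicate numbers. Within replicate numbers 1 and 2, shYthdf2 differed from shScramble on the same scale by 1.74 and 1.71 for Rasgrp2. The differences were 1.80 and 1.49 for Egr1 and 0.75 and 0.39 for Hras. They were -1.06 and -0.81 for Fgf17 and -0.95 and -0.54 for Braf. Since the groups of these genes do not overlap, the shared sign within both numbers was fixed and adds nothing.

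**Figure D3:**
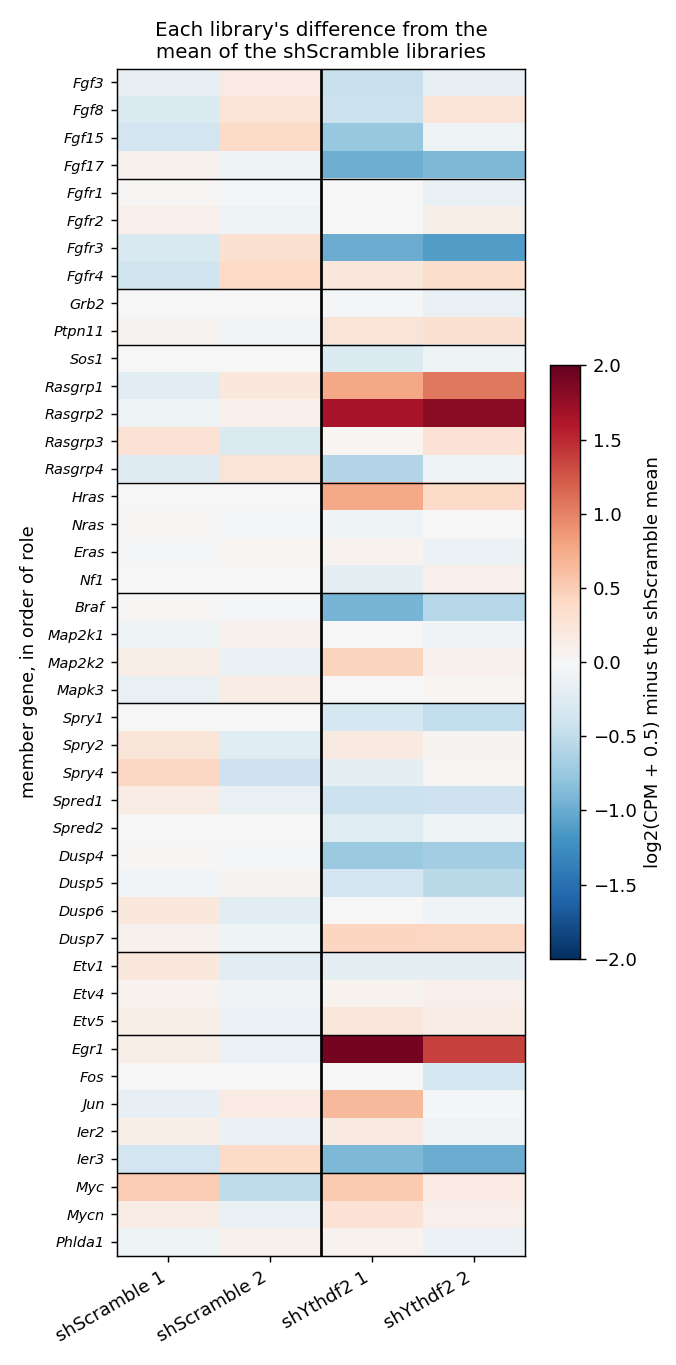
Difference of each library (columns) from the mean of the shScramble libraries for the 43 tested genes (rows, by role), as log2(CPM + 0.5), with red above and blue below that mean. Rasgrp2 and Egr1 are red and Fgf17 and Braf blue in both knockdown columns. The 2 control columns mirror each other for every gene by construction, since their mean is the reference. Which of the 2 is red, and the depth of their colour, as at Myc and Spry4, carry the information.

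The rest of the pathway was followed with 77 further genes, of which 62 were tested. In edgeR 0 were higher and 1 was lower, with 7 higher and 10 lower at an unadjusted p under 0.05 (11% and 9.8% of all tested genes), and DESeq2 called 1 higher and 4 lower. The median log2FC was 0.06. The gene called by edgeR was Ets2, an ETS factor phosphorylated by ERK that is needed in trophoblast. It had 2138 and 2081 reads in the control libraries and 1095 and 1234 in the knockdown, with a log2FC of -0.91 ± 0.12 (SE, with an edgeR adjusted p of 0.0061). Both knockdown libraries were lower. The closest to the threshold among the others were Mras, a RAS relative, at 0.43 (edgeR adjusted p = 0.058), and Dusp9, an ERK phosphatase of ESCs, at -0.63 (edgeR adjusted p = 0.061). Both passed in DESeq2, with adjusted p-values of 0.014 and 0.0025.

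Among markers of other cell states in the same libraries, some lists held called genes and others held none. Over all tested genes 2.43% were called higher and 1.49% lower. The summed level of 14 markers of 2C-like cells, a minor population of ESCs that resembles the early cleavage embryo, was 44.2 and 72.0 CPM in shScramble and 97.5 and 284 CPM in shYthdf2. Of 13 tested, 3 were called higher, namely Zscan4a, Usp17la and Gm4340. Usp17la also passed in DESeq2 (adjusted p = 0.00019), but Zscan4a and Gm4340 did not (adjusted p of 0.092 and 0.105). In shYthdf2 replicates 1 and 2 Zscan4a had 14.4 and 51.3 CPM, and Gm4340 had 21.7 and 72.0 CPM. The 12 neuroectoderm markers summed to 172 and 125 CPM in shScramble and 267 and 202 CPM in shYthdf2. Most of each sum came from Tubb3, which was not called, with 114 and 69.2 CPM in shScramble and 179 and 126 CPM in shYthdf2. Of the 12 markers, 7 were tested and Sox3 and Nes were called higher, with Pax3 at 0 reads in every library. The 10 trophectoderm markers summed to 207 and 217 CPM in shScramble and 178 and 157 CPM in shYthdf2, and Tead4 and Esx1 were called lower of 9 tested. Tfap2c and Cdx2 went the other way, with log2FCs of 0.33 and 0.84, neither called. The other tested genes of this list were lower without a call. The 11 primitive endoderm markers summed to 115 and 109 CPM in shScramble and 138 and 108 CPM in shYthdf2, with 0 of 10 called. The 9 fibroblast markers summed to 22.3 and 28.8 CPM in shScramble and 13.1 and 22.9 CPM in shYthdf2, with 0 of 4 called and Dcn at 0 reads in every library. The part of these states in the levels of Rasgrp2, Egr1, Hras, Fgf17, Braf and Ets2 was not tested.

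**Figure D4:**
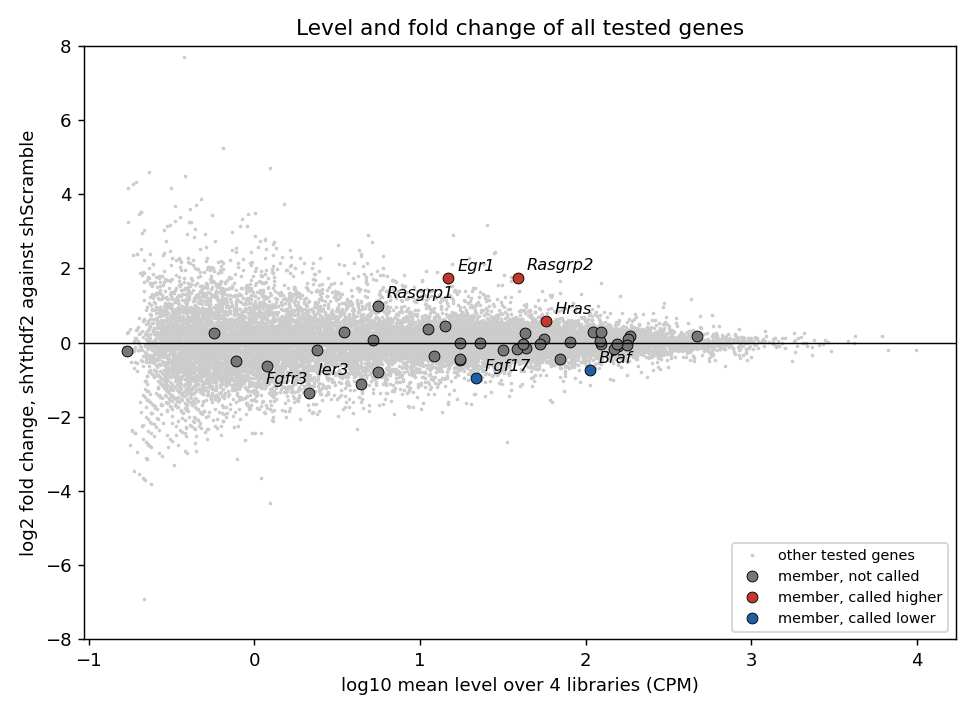
Mean level over the 4 libraries (log10 CPM) against log2FC (shYthdf2 against shScramble) for all 18341 tested genes in light grey, with the 43 tested members as large points in red (called higher), blue (called lower) or dark grey. Rasgrp2 at 1.75 and Egr1 at 1.74 stand above the other members, and the uncalled Fgfr3, Ier3 and Rasgrp1 lie at low levels, with means of 2.14, 4.39 and 5.55 CPM.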

How the data were processed

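RNA was sequenced from 2 shScramble and 2 shYthdf2 libraries of E14 mouse ESCs. The authors deposited 1 table of raw counts per gene for all 4 libraries, without normalization. Per the file headers, featureCounts 2.0.3 assigned reads to exons of the mm10 RefSeq annotation, counting each read of a pair and without a strand option although the libraries were stranded, so antisense reads could not be kept apart and counts overstate the number of molecules. The submitters' processing notes also name fastp 0.19.4, HISAT2 2.2.1 and DESeq2 1.40.2.

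Groups and replicate numbers came from the titles. All 4 columns were mapped to a sample. Libraries held 31113006 to 36422510 counts, and 3 reads, the limit that a count of 0 allows, equal 0.0832 to 0.0951 CPM, covering counting error only. Groups were compared in R 4.3.3 with the two-sided quasi-likelihood test of edgeR 4.0.16 after TMM scaling, without covariates. Genes passed filterByExpr at its defaults (minimum count 10, minimum total 15), and p-values were adjusted over these 18341 genes by Benjamini-Hochberg. Each standard error came from the F statistic together with the fold change. Alternatives were other scalings and filters, DESeq2 1.42.0, halved counts, the replicate number as a block and leaving out each library. The script was tested on simulated data.

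The member genes and the gene lists were chosen with earlier results of these data known. Values in every library are given for members past the adjusted threshold of 0.05, for those with a log2FC of 1 or more in size and a mean of at least 1 CPM, and for the most abundant member of each role per kilobase, and other pathway genes are named where they pass the threshold. Rasgrp1, Dusp4, Spred1, Fos, Jun, Myc, Fosl1, Fgf4, Araf, Mras and Dusp9 were added after their values were seen. For Rasgrp2 and Ier3, whose rows join a chromosome and other contigs, positions and lengths were taken from the chromosome. Some genes of the wider pathway list are not reported here.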

Additional observations from a re-analysis of the deposited data

How the results depend on the processing

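Rasgrp2, Egr1, Fgf17, Braf and Ets2 passed the threshold in the same direction in all 11 other settings that give an adjusted p, and Hras in 9 of them. The 3 higher and 2 lower members became 4 and 4 with DESeq2, 4 and 5 with every gene with a read kept, and 2 and 2 by the criteria of the study (DESeq2, p up to 0.05 without adjustment, log2FC of 1 or more in size). Those criteria kept Rasgrp2 and Egr1 as higher and dropped Hras, and their lower members were Fgfr3 and Ier3 in place of Fgf17 and Braf. Without 1 library they ranged from 3 to 5 higher and from 3 to 4 lower, with 5 higher and 4 lower without shYthdf2 replicate 2 and 4 lower without shScramble replicate 1. Over all genes the 718 calls became 1402 with DESeq2 and 1938 with every gene with a read kept, and ranged from 834 to 2288 without 1 library. Of the other pathway genes, 0 higher and 1 lower became 1 and 4 with DESeq2, 2 and 4 with every gene with a read kept, and 0 lower by the criteria of the study, and ranged from 0 to 3 higher and from 1 to 7 lower without 1 library. The replicate number as a block gave 8 higher and 8 lower members, 5 higher and 10 lower other pathway genes, and 3525 calls over all genes. The labels do not tie same-numbered libraries to each other, and the deviations of libraries with the same number correlated at r = 0.225 across 18341 genes, which are not independent replicates, so the block is given here only. When 1 library was left out, the sign turned for 17 of the 43 tested members and for 0 of the 5 called. Among the 15 members named by the rule it turned for 4, whose log2FC ranged from -0.081 to 0.0033 for Nras, from -0.13 to 0.17 for Mapk3 with -0.0027 without shYthdf2 replicate 2, from -0.25 to 0.19 for Dusp6, and from -0.082 to 0.19 for Ier2 with -0.076 without shScramble replicate 2. Depth limits Fgf3, Fgf8, Fgf15, Rasgrp3 and Fosl1, with at most 62 reads in a library. With 1 library left in a group, that library is assumed to vary like the others.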
